A study of Homo sapiens with 10 samples.

Results

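The Notch receptors NOTCH1, NOTCH2 and NOTCH3, their ligands JAG1, JAG2 and DLL1, and the target genes HES1, HES4, HEY1 and NRARP were followed in irradiated kidney tubule cells. The 10 genes were chosen by symbol, each matched to the Ensembl identifier of its row, out of 61587 gene rows in the count table. All 10 had at least 200 counts over the 10 samples and were among the 19006 genes tested.

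RPTEC/TERT1 is a human renal proximal tubule epithelial line immortalised with telomerase, and all samples came from this 1 line. In the irradiated group, 5 samples received 10 Gy of gamma radiation from a caesium source, and the 5 control samples were mock-irradiated. RNA was taken from both groups on day 7, enriched for polyadenylated transcripts and sequenced in bulk. The sources do not say whether replicates were separate cultures, so p-values measure only the spread between these samples, which may be technical.

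Notch is a receptor on one cell that is cut when a ligand on a neighbouring cell binds and pulls on it. The released intracellular domain enters the nucleus, joins RBPJ and a MAML coactivator, and switches on genes such as those of the HES and HEY repressor families. In the kidney the pathway helps to pattern nephron segments during development, and it is known to be active again in injured tubules.

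Sequencing depth was 78081911 to 131555873 counts in control samples and 66269311 to 101594948 in irradiated samples. Of all genes tested, 4550 (23.9%) were higher and 4307 (22.7%) lower after irradiation at an adjusted p under 0.05 (edgeR quasi-likelihood test with pairs of the same replicate number as a block), whereas scaling by library size alone split them into 3609 higher and 5894 lower. CDKN1A, the cell cycle inhibitor p21 that p53 induces, checked the labels. It was 101.9 ± 59.3 CPM (counts scaled to the same depth in every library, SD, n = 5) in control and 698.5 ± 69.0 CPM in irradiated samples, with no overlap between the groups. Control replicate 3 stood at 207.6 CPM and the other controls at 66.7 to 80.9 CPM, so the replicate 3 control stood apart in this marker. Without pair 3, 9 of the Notch genes described below could be tested, and 6 were called higher and 1 lower. Of all 18345 genes tested in that fit, 4605 were higher and 4047 lower. The log2 fold change of JAG1 was then 1.52 (adjusted p = 0.00118). Among 8 genes listed for the proximal tubule, PAX8 (533 CPM in control, 594 CPM in irradiated samples) and ANPEP (248 and 296 CPM) were abundant. In contrast, LRP2, HNF4A and SLC34A1 had 17, 12 and 86 counts in all samples together. These 3 transport and identity genes of the proximal tubule were thus almost absent. CUBN (4.37 and 4.76 CPM) and GGT1 (10.0 and 12.5 CPM) were low beside PAX8 and did not pass the test. AQP1 fell from 1.82 to 1.19 CPM without overlap (log2 fold change -0.61, adjusted p = 0.00635). The summed level of 5 markers of other tubule segments was 102 to 402 CPM in control and 18.8 to 172 CPM in irradiated samples, most of it SLC12A1, the transporter of the thick ascending limb (178 and 60.9 CPM), and UMOD was at 0 in all samples.

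At an adjusted p under 0.05, 23.9% of all genes tested rose and 22.7% fell. Of the 10 Notch genes, 4 rose (NOTCH2, JAG1, JAG2 and HES4), 1 fell (NRARP) and 5 did not pass the test. JAG1 had the largest change and was the only one called with a fitted change of more than 2-fold, where 5.26% of all genes tested rose and 4.06% fell by that much. The median log2 fold change over the 10 genes was 0.30, beside -0.01 over all genes tested. In bulk RNA, a change in the number of cells that express a gene and a change in RNA per cell cannot be told apart.

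**Figure D1:**
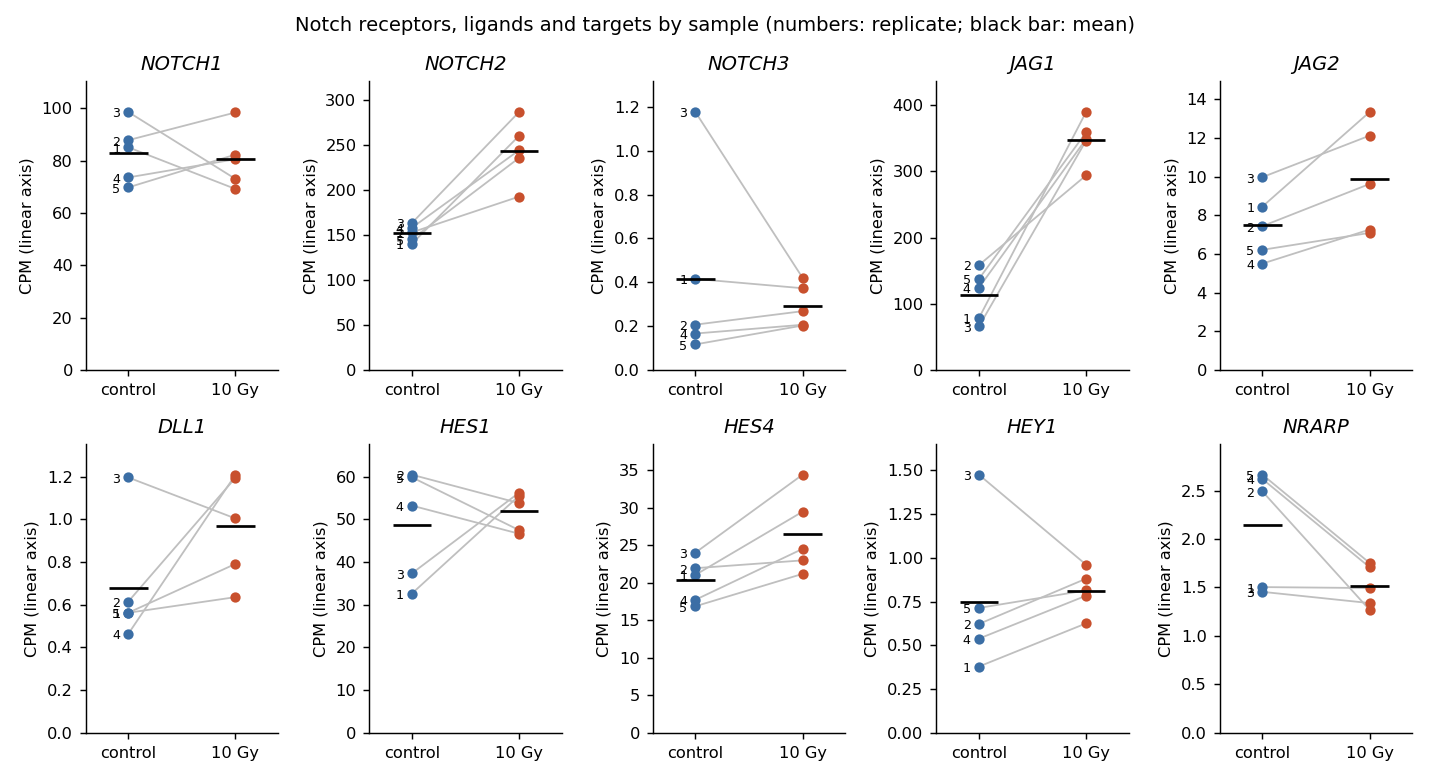
Each panel plots one Notch gene in CPM on a linear axis that starts at 0, with a point for each control (blue) and irradiated (10 Gy, red) sample, a grey line joining samples of the same replicate number and a black bar at the group mean. JAG1 and NOTCH2 have all 5 irradiated samples above all 5 control samples, and the groups overlap for the other 8 genes.

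Among the receptors, NOTCH2 rose and neither NOTCH1 nor NOTCH3 passed the test. NOTCH2, one of the main receptors of developing nephrons, lies on chromosome 1 at 119911553 to 120100779 on the minus strand of GRCh38 (ENSG00000134250). Its level in control replicates 1 to 5 was 140.1, 153, 163, 158 and 145 CPM, and in irradiated replicates 1 to 5 it was 260, 192, 286, 244 and 235 CPM. The lowest irradiated sample, replicate 2, lay above the highest control. The fitted change was 1.59-fold (log2 fold change 0.67, SE 0.08, adjusted p = 0.000427), and NOTCH2 was higher in 5 of 5 pairs. NOTCH2 and JAG1 were the only 2 of the 10 genes without overlap. All irradiated samples lay above all controls for 14.6% of all genes tested and below them for 12.0%.

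NOTCH2 has partial copies on the same chromosome, the NOTCH2NL genes, which can share reads with it. NOTCH2NLC held 3329 counts over all samples, NOTCH2NLA 199, NOTCH2NLR 171 and NOTCH2NLB 13, against 191820 on NOTCH2. NOTCH2NLC averaged 3.05 ± 0.193 CPM in control and 3.76 ± 0.551 CPM in irradiated samples (log2 fold change 0.29, adjusted p = 0.0385). How reads were divided between the copies was not tested.

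NOTCH1, the receptor best known from T cell development, lies on chromosome 9 at 136494433 to 136546048 on the minus strand (ENSG00000148400). In control replicates 1 to 5 it measured 85.0, 87.8, 98.5, 73.6 and 69.8 CPM, and in irradiated replicates it was 69.2, 98.4, 73.0, 80.5 and 82.3 CPM. The irradiated samples spanned nearly the same range as the controls, lower in pairs 1 and 3 and higher in pairs 2, 4 and 5. The log2 fold change was -0.04 with a 95% interval from -0.28 to 0.20 (adjusted p = 0.781). Without pairs 1 and 3, an alternative chosen after seeing the data, NOTCH1 was called higher (log2 fold change 0.16, adjusted p = 0.0191).

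NOTCH3, the receptor of vascular smooth muscle and pericytes, lies on chromosome 19 at 15159038 to 15200995 on the minus strand (ENSG00000074181) and held only 344 counts in all. Counts in control replicates 1 to 5 were 34, 29, 118, 18 and 14, and in irradiated replicates 37, 18, 39, 19 and 18. Control replicate 3 alone accounted for the upper part of the range. Its log2 fold change was -0.23 with a 95% interval from -1.02 to 0.55 (adjusted p = 0.6). Without pair 3 the gene had under 200 counts and was not testable.

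The ligand JAG1, a membrane protein of the Serrate and Jagged family, had the largest change of the 10 genes. JAG1 lies on chromosome 20 at 10637684 to 10673999 on the minus strand (ENSG00000101384), with 3.3% of its exon bases under a gene of the other strand. Control replicates 1 to 5 stood at 78.7, 159, 66.2, 125 and 138 CPM, and in irradiated replicates 1 to 5 it was 390, 294, 347, 349 and 359 CPM. Control replicates 1 and 3 were the lowest of the controls, and every irradiated sample lay above every control. The irradiated sample was 4.95, 1.85, 5.24, 2.8 and 2.61 times its control in pairs 1 to 5. The fitted change was 3.22-fold (log2 fold change 1.69, SE 0.22, 95% interval 1.18 to 2.20, adjusted p = 0.00066), and without pairs 1 and 3 the log2 fold change was 1.24 (adjusted p = 0.00026).

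JAG2, the second Jagged ligand, lies on chromosome 14 at 105140982 to 105168824 on the minus strand (ENSG00000184916), with 7.3% of its exon bases shared with another gene of its strand. Its level in control replicates 1 to 5 was 8.45, 7.44, 9.97, 5.50 and 6.22 CPM, and in irradiated replicates it was 13.3, 9.62, 12.1, 7.26 and 7.09 CPM. The groups overlapped, and each irradiated sample was above the control of its own number. The fitted change was 1.30-fold (log2 fold change 0.38, SE 0.08, adjusted p = 0.00722). The call rests on the pairing by replicate number, since without the replicate block the adjusted p was 0.158.

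DLL1, a ligand of the Delta family, lies on chromosome 6 at 170282206 to 170306565 on the minus strand (ENSG00000198719), where 9.7% of its exon bases lie under exons of FAM120B on the other strand. Its counts in control replicates 1 to 5 were 46, 86, 120, 50 and 67, and in irradiated replicates 63, 80, 93, 111 and 70. These correspond to 0.563, 0.615, 1.20, 0.464 and 0.563 CPM in control and 0.636, 1.20, 1.0, 1.21 and 0.791 CPM in irradiated samples. Control replicate 3 was near the highest irradiated values, and 4 of 5 pairs were higher after irradiation. DLL1 did not pass the test (log2 fold change 0.54, 95% interval -0.001 to 1.09, adjusted p = 0.0931), and it was called higher without pair 3 (log2 fold change 0.78, adjusted p = 0.0199).

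**Figure D2:**
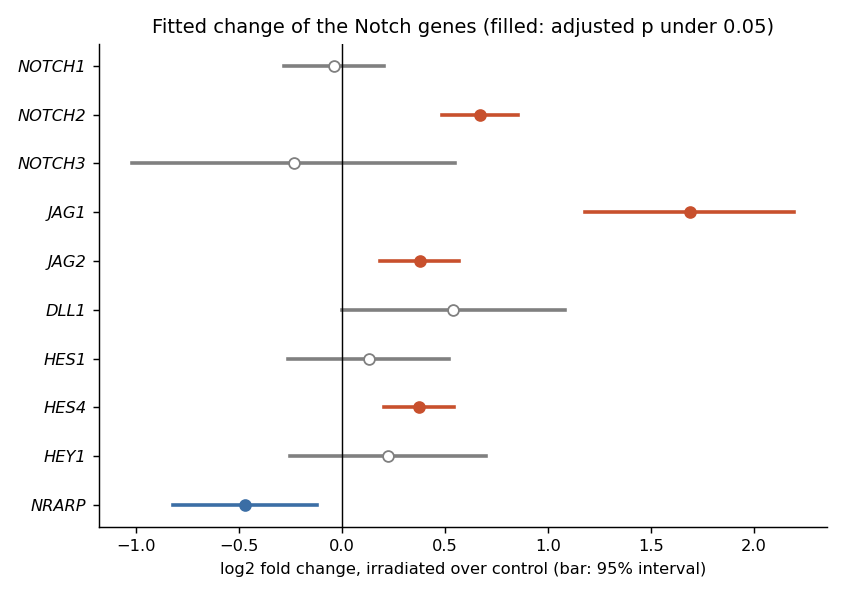
The horizontal axis is the fitted log2 fold change of irradiated over control samples, with a 95% interval for each Notch gene, and filled points have an adjusted p under 0.05. JAG1 at 1.69 lies to the right of all other genes, NOTCH2, JAG2 and HES4 also rose, and NRARP at -0.47 was the only one called lower.

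Levels of different genes were compared as CPM per kilobase of exon. By this measure NOTCH2 was the most abundant receptor in control samples (9.07 ± 0.553 CPM per kb), followed by NOTCH1 (6.62 ± 0.921) and, far lower, NOTCH3 (0.0443). NOTCH2 made up 57.8 ± 3.2% of the summed receptor level in control and 69.0 ± 6.03% in irradiated samples, and these ranges overlapped (54.9% to 61.6% and 59.3% to 74.4%). The NOTCH1 share was 41.9 ± 3.03% in control and 30.9 ± 6.05% in irradiated samples, while its own level was 6.44 ± 0.899 CPM per kb after irradiation. The NOTCH2 share in control was 61.2% when the length of the longest transcript was used.

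JAG1 was the dominant ligand in every sample. It stood at 12.2 ± 4.24 CPM per kb in control and 37.4 ± 3.71 CPM per kb in irradiated samples, which placed it at percentile 82.9 and 95.1 of all genes tested. JAG2 stood at 1.18 ± 0.278 and 1.54 ± 0.439 CPM per kb, and DLL1 at 0.178 and 0.253 CPM per kb. JAG1 made up 79.2% to 93.2% of the summed ligand level in control samples and 94.5% to 96.7% in irradiated samples.

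The summed ligand level was 8.99 to 18.4 CPM per kb in control and 33.5 to 44.2 CPM per kb in irradiated samples. The summed receptor level was 14.3 to 17.7 CPM per kb in control and 19.4 to 23.0 CPM per kb in irradiated samples. The ratio of ligand to receptor level was 0.507 to 1.14 in control and 1.72 to 2.10 in irradiated samples. The control values lay on both sides of 1 and every irradiated value above it. No test was made on these sums over chosen genes, in which JAG1 carries most of the ligand level.

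**Figure D3:**
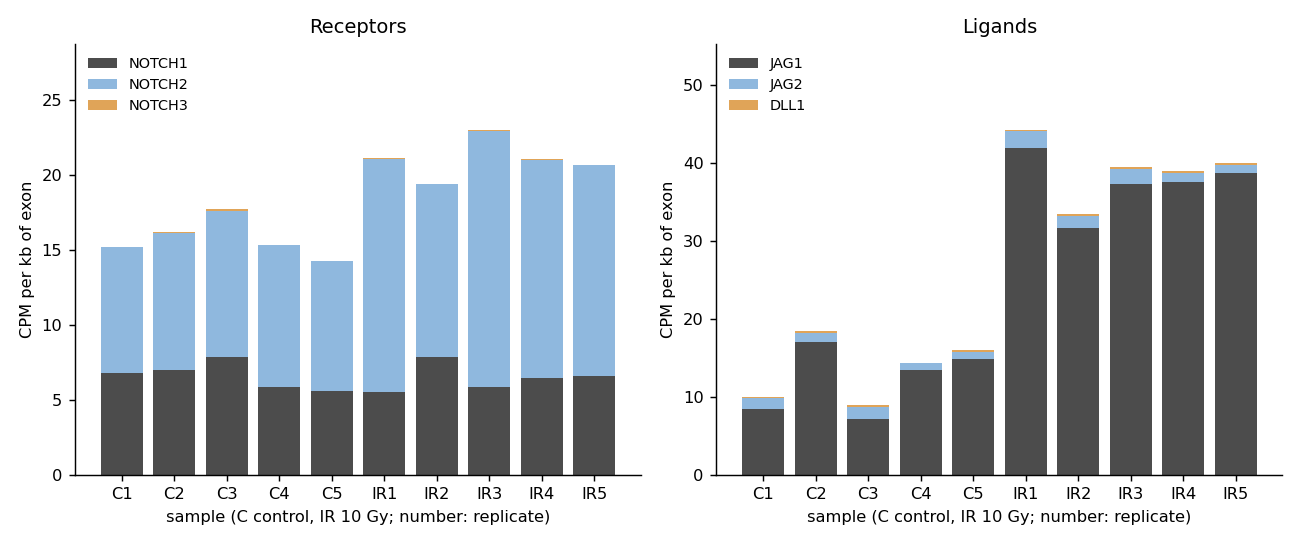
Stacked bars show the level per exon length (CPM per kb, linear axis from 0) of the 3 receptors on the left and the 3 ligands on the right, with one bar for each control (C) and irradiated (IR) replicate. The ligand bars are almost wholly JAG1 in the irradiated samples, where its share is 94.5% to 96.7%, and the receptor bars consist of NOTCH1 and NOTCH2, with NOTCH3 too low to be seen.

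The target genes did not move together: HES4 rose, NRARP fell, and HES1 and HEY1 did not pass the test. HES1, HES4 and HEY1 encode basic helix-loop-helix repressors, and NRARP encodes a small ankyrin repeat protein that restrains Notch signalling. Sequence just upstream of the transcription start is shown for the 3 named targets below and for JAG1. A form of the letters read by RBPJ, TGGGAA, can be looked for there. The windows are 120 bases that end at the base before the start, from RefSeq on GRCh38.p14, printed 5′ to 3′ on the strand of the gene, with capitals marking TGGGAA. RefSeq places the HES4 start inside the GENCODE gene, so part of that window is transcribed in the latter.
HES1, chr3:194136028-194136147, plus strand: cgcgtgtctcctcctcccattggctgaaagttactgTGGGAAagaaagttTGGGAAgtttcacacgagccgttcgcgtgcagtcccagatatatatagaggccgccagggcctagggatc
HES4, chr1:1000098-1000217, minus strand: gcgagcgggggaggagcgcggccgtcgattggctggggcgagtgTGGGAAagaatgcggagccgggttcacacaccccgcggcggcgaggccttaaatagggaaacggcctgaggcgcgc
NRARP, chr9:137302272-137302391, minus strand: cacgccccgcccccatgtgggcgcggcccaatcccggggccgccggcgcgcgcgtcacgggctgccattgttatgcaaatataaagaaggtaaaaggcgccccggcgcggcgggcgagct
JAG1, chr20:10674000-10674119, minus strand: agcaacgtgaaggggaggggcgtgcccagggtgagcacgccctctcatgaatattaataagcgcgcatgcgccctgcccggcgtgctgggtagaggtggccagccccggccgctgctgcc

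TGGGAA and the longer GTGGGAA, which holds it, were searched on both strands in windows from 250 bases before to 50 bases after the start, present in the table for 8 of the 10 genes (not DLL1 or HEY1). TGGGAA was found in 24% of all 35116 promoter windows and GTGGGAA in 6.25%. The HES1 window held TGGGAA at 84 to 79 and at 70 to 65 bases upstream, the first of them as GTGGGAA. The HES4 window held GTGGGAA at 77 to 71 bases upstream. The other 6 windows held neither. HES1 and HES4 shared a run of 12 bases, TGTGGGAAAGAA, which starts 86 bases upstream in HES1 and 78 bases upstream in HES4. Only TGGGAA and GTGGGAA were searched, so other forms of the letters read by RBPJ were not counted. A match is a description of the letters, not a measured binding site.

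HES4 lies on chromosome 1 at 998962 to 1000172 on the minus strand (ENSG00000188290). In control replicates 1 to 5 it measured 21.1, 21.9, 24.0, 17.7 and 16.9 CPM, and in irradiated replicates it was 29.5, 23.0, 34.4, 24.5 and 21.2 CPM. The groups overlapped, since irradiated replicates 2 and 5 lay below the highest control, but all 5 pairs were higher after irradiation. The log2 fold change was 0.37 (SE 0.07, adjusted p = 0.00458), and without the replicate block the adjusted p was 0.0498.

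HES1, whose window holds the pair of TGGGAA matches shown above, lies on chromosome 3 at 194136148 to 194138732 on the plus strand (ENSG00000114315). Control replicates 1 to 5 stood at 32.6, 60.4, 37.3, 53.2 and 59.8 CPM, and in irradiated replicates it was 55.5, 53.8, 56.2, 46.6 and 47.5 CPM. Control replicates 1 and 3 were below every irradiated sample, and the irradiated samples of pairs 2, 4 and 5 were below their own controls. Its log2 fold change was 0.13 with a 95% interval from -0.26 to 0.52 (adjusted p = 0.558). Without pairs 1 and 3 the direction turned and HES1 was called lower (log2 fold change -0.25, adjusted p = 0.0057). Per exon length it was the highest of the 4 targets in control samples, at 23.6 ± 6.28 CPM per kb, with HES4 at 18.2 ± 2.66 CPM per kb, and these differed by less than the spread of HES1.

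NRARP, whose window holds neither TGGGAA nor GTGGGAA, lies on chromosome 9 at 137299631 to 137302271 on the minus strand (ENSG00000198435). Of its exon bases, 2.8% lie under a gene of the other strand. Its level in control replicates 1 to 5 was 1.5, 2.49, 1.46, 2.62 and 2.66 CPM, and in irradiated replicates it was 1.49, 1.27, 1.34, 1.71 and 1.75 CPM. Control replicates 1 and 3 lay within the range of the irradiated samples and controls 2, 4 and 5 above it. NRARP was lower in 5 of 5 pairs, with a ratio of 0.993 in pair 1 and 0.92 in pair 3 but 0.51 to 0.658 in the others. The log2 fold change was -0.47 (SE 0.15, adjusted p = 0.0361). The call was lost without pair 2 (-0.34, adjusted p = 0.0938), pair 4 (-0.43, adjusted p = 0.114) or pair 5 (-0.43, adjusted p = 0.119), and without the replicate block (adjusted p = 0.0658).

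HEY1 (ENSG00000164683), on chromosome 8 at 79762371 to 79767857 on the minus strand, held only 763 counts over all samples. In control replicates 1 to 5 it measured 0.379, 0.622, 1.48, 0.538 and 0.714 CPM, and in irradiated replicates it was 0.626, 0.881, 0.961, 0.784 and 0.814 CPM. Control replicate 3 was the highest of all 10 samples, and in the other 4 pairs the irradiated sample was higher. Its log2 fold change was 0.22 with a 95% interval from -0.25 to 0.70 (adjusted p = 0.404), and HEY1 was called higher without pair 3 (0.47, adjusted p = 0.0277).

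Genes of the cell cycle were tracked because the controls differed in them. The mean of a list of 15 cell cycle genes was 4.11, 5.37, 4.03, 5.44 and 5.36 log2 CPM in control replicates 1 to 5, and 3.42, 3.05, 3.58, 3.55 and 3.32 log2 CPM in irradiated replicates. Control replicates 1 and 3 were therefore closer to the irradiated samples than the other controls were. Of the 15 genes, 13 were lower after irradiation, beside 22.7% of all genes tested. Control replicates 1 and 3 had the lowest HES1, NRARP and JAG1 levels among the controls, but the highest JAG2 levels. Control replicate 3 was also the highest control for NOTCH1, NOTCH2, NOTCH3, DLL1, HES4 and HEY1. The part of this difference in the Notch values was not tested.

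**Figure D4:**
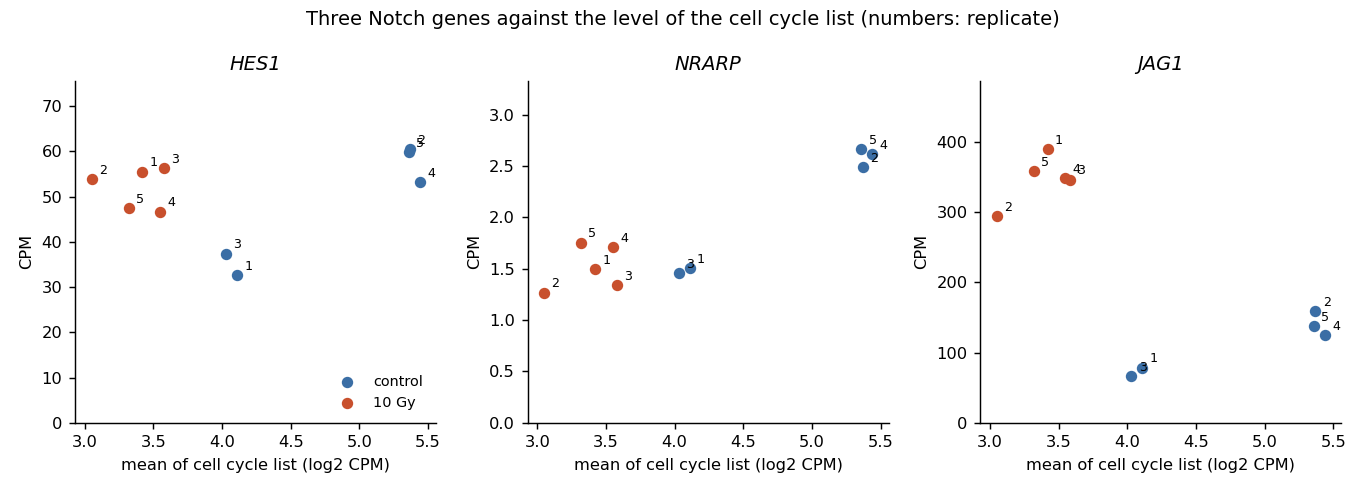
The horizontal axes give the mean of the cell cycle list in log2 CPM and the vertical axes give HES1, NRARP and JAG1 in CPM from 0, with a point per sample (control blue, irradiated red) and the replicate number beside it. Control replicates 1 and 3 (list mean 4.11 and 4.03) sit between the other controls and the irradiated samples on the horizontal axis and are the lowest controls in all 3 panels.

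The rest of the pathway was described by a list of 53 further genes, of which 47 could be tested. Of these, 13 rose, 15 fell and 19 did not pass the test, with a median log2 fold change of 0.03. Over all genes tested 23.9% rose and 22.7% fell, with a median of -0.01. The genes DLL4, DLK1, NEURL1, HES3, HES5 and HEYL had 88, 2, 175, 1, 10 and 5 counts in all samples and were not tested.

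LFNG, the Fringe sugar transferase that alters which ligands a receptor answers to, was one of 2 listed genes that rose by more than 2-fold. Control replicates 1 to 5 stood at 1.33, 1.52, 0.708, 2.51 and 2.13 CPM, and in irradiated replicates it was 5.93, 3.93, 5.08, 7.79 and 8.12 CPM. The groups did not overlap (log2 fold change 1.96, SE 0.20, adjusted p = 0.000202). In its role group of 6 sugar transferases, EOGT (0.39, adjusted p = 0.00727) and POGLUT1 (0.34, adjusted p = 0.00295) also rose, and POFUT1, MFNG and RFNG did not pass the test.

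HES2, a HES relative, was the other gene that rose by more than 2-fold. Its level in control replicates 1 to 5 was 1.87, 3.81, 2.81, 1.95 and 2.12 CPM, and in irradiated replicates it was 9.47, 18.5, 12.1, 12.9 and 12.4 CPM. The groups lay apart, with the highest control and the highest irradiated sample both replicate 2 (log2 fold change 2.40, SE 0.10, adjusted p = 1.08e-05). HEY2, a repressor of the same family as HEY1, fell from 0.387 to 0.195 CPM with no overlap (log2 fold change -1.03, SE 0.20, adjusted p = 0.00435). Members of the HES and HEY families thus differed in direction.

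The receptor NOTCH4, an endothelial Notch, fell from 0.583 to 0.295 CPM (log2 fold change -1.01, SE 0.25, adjusted p = 0.0122). Both tested genes that the list groups as ligands rose. DLL3 went from 0.318 to 0.562 CPM (log2 fold change 0.82, adjusted p = 0.00241). DLK2 had a log2 fold change of 0.38 (adjusted p = 0.0253). Whether DLL3 and DLK2 activate or restrain the receptor here was not measured. NOTCH4, DLL3 and DLK2 were low in abundance.

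NEURL1B, a ubiquitin ligase that acts on ligands in the sending cell, had the largest fall of the list. In control replicates 1 to 5 it measured 1.36, 2.98, 1.31, 3.19 and 2.94 CPM, and in irradiated replicates it was 0.535, 0.448, 0.940, 0.740 and 0.588 CPM. The groups did not overlap, and control replicates 1 and 3 were again the lowest controls (log2 fold change -1.78, SE 0.31, adjusted p = 0.00242). The related ligases MIB1 and MIB2 did not pass the test.

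Among 9 genes of receptor cleavage, 2 rose and 2 fell, where 23.9% of all genes tested rose and 22.7% fell. The gamma-secretase subunit APH1B rose (0.47, adjusted p = 0.00283), and the sheddase ADAM17 fell (-0.24, adjusted p = 0.034). Among 9 genes of receptor turnover, 3 rose and 3 fell. FBXW7, which marks the intracellular domain for degradation, rose (0.46, adjusted p = 0.00255), and the Deltex genes DTX1 (-0.55, adjusted p = 0.00296) and DTX3 (-0.44, adjusted p = 0.036) fell.

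In the nuclear complex, 3 of 5 genes fell by small amounts, beside 22.7% of all genes tested. They were SNW1 (-0.24, adjusted p = 0.00514), MAML1 (-0.21, adjusted p = 0.00454) and MAML2 (-0.19, adjusted p = 0.0186). RBPJ, the DNA-binding protein of the complex, had a log2 fold change of -0.04 and did not pass the test (adjusted p = 0.683). Among 8 corepressors, 2 rose and 4 fell, beside 23.9% and 22.7% of all genes tested. TLE2 fell from 29.9 to 16.5 CPM (-0.86, adjusted p = 0.000106) and TLE3 from 81.6 to 51.1 CPM (-0.68, adjusted p = 7.73e-05), whereas TLE4 rose from 10.2 to 15.3 CPM (0.58, adjusted p = 0.000364).

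Genes whose pattern over the 10 samples was most like that of the member with the largest rise and of the one that fell were named by the smallest root mean square difference in centred log2 CPM. For JAG1 these included DUSP6 (0.135) and ZBED2 (0.18), with log2 fold changes of 1.68 and 1.80. For NRARP they were MTBP (0.072), POLA1 (0.085) and ENSG00000271936 (0.108), with log2 fold changes of -0.48, -0.52 and -0.66.

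Markers of other cell types were read in the same samples. Summed leukocyte markers were 0.218 to 0.575 CPM in control and 1.15 to 1.99 CPM in irradiated samples, with 3 counts of CD3E and 27 of CD68 in all. Summed endothelial markers were 1.39 to 2.48 and 4.17 to 6.11 CPM, with 2 counts of KDR. Summed fibroblast and mural markers were 16 to 24.2 and 27.4 to 39.7 CPM, with 4 counts of COL3A1 and 49 of PDGFRB. The 3 sums were higher in every irradiated sample than in any control, and the rise of each was carried mainly by 1 gene. These genes were ITGAM (0.0436 to 1.24 CPM, control to irradiated mean), CDH5 (0.596 to 3.31 CPM) and COL1A1 (18.9 to 32.2 CPM). In control samples PTPRC (0.295 CPM) stood above ITGAM, and PECAM1 (0.860 CPM) above CDH5. The other markers of these lists were mixed. PECAM1 rose (log2 fold change 0.72, adjusted p = 0.00519), RGS5 fell (log2 fold change -0.83, adjusted p = 0.00348), VWF and PTPRC did not pass the test, and TIE1 averaged 0.0965 CPM in control and 0.016 CPM in irradiated samples. The part of these markers in the Notch values was not tested.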

How the data were processed

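The data were bulk RNA-seq gene counts for 5 irradiated and 5 control samples of RPTEC/TERT1. The counts the authors deposited are whole numbers per gene, made with STAR on hg38 and neither normalised nor filtered. The annotation release is not given in the sources used here, coordinates and symbols are from GENCODE on GRCh38, and 61369 of 61587 rows had a symbol. The counts were treated as unstranded, since all 17 protein-coding genes lying wholly under exons of the other strand had 0 counts. The labels and the study's methods name different library kits, and the labels number the cell line name upward from sample to sample, where the design text gives RPTEC/TERT1 throughout. Other data of the study were not analysed here.

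Genes reaching 200 counts summed over samples were fitted in R 4.3.3 with edgeR 4.0.16 (TMM factors, quasi-likelihood test, replicate number as a block, Benjamini-Hochberg adjustment over all genes tested, threshold 0.05). Same-numbered samples deviated together from their group means (correlation 0.22 to 0.51 in the 5 pairs). Correlations between samples of different numbers are not given here. The study's own model of these libraries also controlled for replicate number. The numbers in the labels were therefore taken to pair the samples. CPM used TMM-scaled library sizes and levels per length used merged exon length. Alternatives were upper quartile factors, library size only, DESeq2 1.42.0, limma-voom (limma 3.58.1), minimum counts of 1, filterByExpr, no block, and each pair left out. The scripts were tested on simulated data. Named were all 10 Notch genes, listed pathway genes called with more than 2-fold change or among the 3 largest called changes of a role, the 3 genes most like JAG1 and NRARP, and CDKN1A, and a few genes that these rules or lists take in are not reported here. The members and lists were chosen with earlier results of these data known.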

Additional observations from a re-analysis of the deposited data

Results flagged for a closer look

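A single sample stood apart in 4 of the 62 groups of 5 samples examined for the Notch genes, the named pathway genes and CDKN1A, by the gap between the extreme sample and its nearest neighbour relative to the range of the group. NOTCH3 was 1.18 CPM in control replicate 3 and 0.118 to 0.416 CPM in the other controls. DLL1 was 1.20 CPM in control replicate 3 and 0.464 to 0.615 CPM in the other controls. CDKN1A was 207.6 CPM in control replicate 3 and 66.7 to 80.9 CPM in the other controls. HEY2 was 0.343 CPM in irradiated replicate 2 and 0.131 to 0.192 CPM in the other irradiated samples. Chance marks about 1 in 20 groups. HEY1 was also highest in control replicate 3 (1.48 CPM) without passing the limit. NOTCH3, DLL1 and HEY1 are low in abundance, and without pair 3 DLL1 and HEY1 were called higher and NOTCH3 had too few counts to be tested.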

How the results depend on the processing

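Over the 10 Notch genes and all alternatives, 115 of 128 values kept their direction and side of the threshold. A further 5 lost the call, 3 gained one in the same direction and 5 turned direction. Among those that turned, NOTCH1 (adjusted p = 0.0191) and HES1 (adjusted p = 0.0057) without replicates 1 and 3 also gained a call. The log2 fold change lay at 1.24 to 1.90 for JAG1, 0.54 to 0.76 for NOTCH2, 0.30 to 0.43 for JAG2 and 0.27 to 0.46 for HES4. The number of Notch genes called higher was 3 to 6 of the 9 or 10 tested. The number called lower was 0 with no replicate block in edgeR (1 at an unadjusted p under 0.05, and 1 called by DESeq2 and by limma-voom, both with the block), 0 to 1 when each pair was left out, and 2 without replicates 1 and 3. The number of pathway genes called lower was 9 to 17 when each pair was left out. NOTCH1 turned direction when pairs were left out (-0.102 to 0.065) and without replicates 1 and 3 (0.16), as did HES1 (-0.027 to 0.255, and -0.25 without replicates 1 and 3). Leaving out replicates 1 and 3 together was chosen after seeing the data, and the cause of these changes was not tested. Without the replicate block JAG2 and NRARP lost their calls, and for the paired fit all genes called numbered 4550 higher and 4307 lower, against 3640 and 3366 without it. NOTCH3, HEY1 and DLL1 held 344, 763 and 786 counts in all, and NOTCH3 was not testable without replicate 3.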
